A study of Mus musculus with 12 samples.

Results

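Cpt1a, Cpt2, Acadm, Acadl, Acadvl, Ehhadh, Hadha and Bdh1, enzymes of hepatic fatty acid oxidation and ketone body formation, were followed in mouse liver over the first 6 h of concanavalin A (ConA) hepatitis. Every probe set whose gene symbol was one of these 8 was taken, which gave 13 of the 45037 probe sets tested and 8 of the 18193 genes with a probe set of their own. A probe set is a group of short oligonucleotides on the array that together report 1 transcript. Where a gene had several, the one with the highest mean signal is called its leading probe set. The animals were male Balb/c mice, 8 to 10 weeks old, and whole liver was measured on 12 Affymetrix arrays, 3 in each of 4 groups. The control group was taken at 0 h, and the other groups were taken 1 h, 3 h or 6 h after 20 mg/kg ConA, a plant lectin that activates T cells and NKT cells, was given into the tail vein. The sample labels call the control mice untreated, whereas the study's methods state that control mice received PBS. No control was taken after 0 h, so that ConA and the time of day or food intake cannot be told apart.

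Long-chain fatty acids enter the mitochondrion as carnitine esters. Cpt1a, in the outer mitochondrial membrane, makes these esters, and malonyl-CoA inhibits this step. Cpt2 turns them back into acyl-CoA inside. The acyl-CoA dehydrogenases Acadvl, Acadl and Acadm then begin each round of beta-oxidation for very long, long and medium chains, and Hadha, the alpha subunit of the trifunctional protein, carries out the next steps. Ehhadh is the bifunctional enzyme of the peroxisomal route. In hepatocytes much of the acetyl-CoA is made into acetoacetate, which Bdh1 reduces to beta-hydroxybutyrate for export. The nuclear receptor PPARalpha (gene Ppara), with RXR, is the best known inducer of this set of genes in the fasting liver.

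Of the 8 enzymes, Cpt1a and Bdh1 were lower in the 6 h group than in the control group. Bdh1 was at 55.7% of the control level at 6 h on its leading probe set and at 48.0% on its other one, and Cpt1a was at 51.7% on its leading probe set. The other Cpt1a probe sets, at 66.3% and 63.04%, did not pass the test (adjusted p = 0.34 and 0.29), and the Cpt1a call was lost when any 1 of 3 arrays was left out (adjusted p up to 0.058). The leading probe sets of Acadvl, Acadl, Acadm and Hadha stood at 87.9% to 97.5% of the control level at 6 h, and none passed the test. Cpt2 was at 73.2% and Ehhadh at 67.3%, both with 3 arrays below all 3 controls and neither past the test. No probe set of the 8 enzymes passed the test at 1 h or at 3 h. These percentages are ratios of the groups' mean log2 signals put back on the linear scale.

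Promoter sequences from RefSeq (build GRCm38.p6, from 250 bases before to 50 after a start site) were found for all 8 genes, 9 sequences in all since Bdh1 has 2 listed starts. The core motif AGGTCA of nuclear receptors such as PPARalpha and RXR was searched on both strands. It occurred in 3 of the 9, Cpt1a, Acadm and Acadvl, and in 16.3% of 32851 mouse promoters of this length. The sequences with a match are shown with both Bdh1 starts, so that the gene that fell on both of its probe sets can be read beside them. Each runs 5′ to 3′ on the gene's own strand, and capitals mark the motif, which reads TGACCT where it lies on the other strand.
Cpt1a (chr19:3323051-3323350, + strand): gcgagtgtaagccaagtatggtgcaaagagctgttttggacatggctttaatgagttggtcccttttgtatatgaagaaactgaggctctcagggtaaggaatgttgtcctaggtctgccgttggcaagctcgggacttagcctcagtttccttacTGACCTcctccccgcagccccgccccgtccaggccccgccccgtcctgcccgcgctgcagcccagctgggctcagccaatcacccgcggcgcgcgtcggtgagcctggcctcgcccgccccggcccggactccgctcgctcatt
Acadm (chr3:153944594-153944893, - strand): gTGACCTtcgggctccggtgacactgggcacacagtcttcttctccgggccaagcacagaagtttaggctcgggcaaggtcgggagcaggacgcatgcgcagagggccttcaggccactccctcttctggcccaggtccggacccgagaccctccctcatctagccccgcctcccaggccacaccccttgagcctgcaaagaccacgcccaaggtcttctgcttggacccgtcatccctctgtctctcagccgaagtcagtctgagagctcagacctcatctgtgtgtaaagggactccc
Acadvl (chr11:70015379-70015678, - strand): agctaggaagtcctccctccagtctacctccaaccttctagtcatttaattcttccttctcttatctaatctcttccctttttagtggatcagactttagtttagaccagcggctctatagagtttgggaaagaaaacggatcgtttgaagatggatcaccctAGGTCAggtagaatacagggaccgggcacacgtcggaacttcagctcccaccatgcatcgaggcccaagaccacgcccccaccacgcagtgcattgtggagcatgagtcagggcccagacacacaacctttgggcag
Bdh1, first start (chr16:31422047-31422346, + strand): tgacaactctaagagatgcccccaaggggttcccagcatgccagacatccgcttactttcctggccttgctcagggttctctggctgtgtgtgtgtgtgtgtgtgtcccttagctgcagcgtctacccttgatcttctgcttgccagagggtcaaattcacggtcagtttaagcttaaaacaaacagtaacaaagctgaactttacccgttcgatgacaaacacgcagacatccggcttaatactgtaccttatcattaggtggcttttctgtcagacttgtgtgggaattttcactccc
Bdh1, second start (chr16:31428503-31428802, + strand): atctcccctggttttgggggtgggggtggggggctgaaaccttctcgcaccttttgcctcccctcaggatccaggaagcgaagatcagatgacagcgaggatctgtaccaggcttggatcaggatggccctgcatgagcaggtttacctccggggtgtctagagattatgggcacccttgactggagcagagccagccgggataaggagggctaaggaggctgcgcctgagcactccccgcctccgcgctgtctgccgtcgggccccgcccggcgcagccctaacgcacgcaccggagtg
Counting the start site as 1 and the base before it as -1, the match began at -94 in Cpt1a, -249 in Acadm and -87 in Acadvl. CCAAT, the box bound by NF-Y, occurred in Cpt1a and Ehhadh, 2 of the 9, against 37.4% of all. The E-box CACGTG (7.15% of all) and the TATA box TATAAA (13.6% of all) occurred in 0 of the 9. Of the promoters with the core, that of Cpt1a belonged to a gene that fell, and those of Acadm and Acadvl to genes that did not pass the test. Neither Bdh1 sequence held the core. These are matches of letters in short windows and say nothing on binding.

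The deposited values were linear signals with an array median between 13.7 and 20.4. Differences are given as log2 changes with their standard error (SE) from 1 limma fit of 4 group means. A change passed the test at a Benjamini-Hochberg adjusted p under 0.05 over all 45037 probe sets, and 95% intervals are not adjusted. The labels describe the extraction as done mouse by mouse but do not state that each array held another mouse, so p-values measure the spread between these arrays. Markers of hepatocytes such as albumin were present throughout. The summed signal of 9 of them was 64405 to 69585 on the control arrays and 66948 to 70823 at 6 h, where 1 passed the test, Hnf4a, as higher (log2 change 0.73). Another 2, Asgr1 (-0.29) and Cps1 (-0.20), were lower at 6 h at an unadjusted p under 0.05 in limma. They did not pass (adjusted p = 0.15 for both). Such a sum is weighted to its brightest genes. In whole liver, fewer cells of a type and less RNA per cell cannot be told apart.

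Cpt1a fell in the 6 h group. On its leading probe set (1460409_at) the signal was 1908, 2391 and 1340 on the 3 control arrays, 1632, 1933 and 1616 at 1 h, 1031, 1286 and 1276 at 3 h, with 1121, 1040 and 723 at 6 h. The 1 h arrays lay within the control range, and every array at 3 h and 6 h lay below the lowest control. The control arrays were the most scattered, with a mean of 1880 ± 526 (SD, n = 3) against 961 ± 210 (SD, n = 3) at 6 h. The log2 change was -0.09 (SE 0.23, adjusted p = 0.96) at 1 h, -0.62 (SE 0.23, adjusted p = 0.12) at 3 h and -0.95 (SE 0.23, adjusted p = 0.018) at 6 h. The step from 3 h to 6 h was -0.34 (95% interval -0.86 to 0.19, adjusted p = 0.41) and did not pass the test. The order of the levels on this probe set was therefore control and 1 h, then 3 h, then 6 h, with neighbours not separated by the test. The call at 6 h was lost without control replicate 1 (adjusted p = 0.055), control replicate 2 (0.057) or ConA 6 h replicate 3 (0.058), with log2 changes of -0.92, -0.76 and -0.76. It was also lost in a fit of only the control and 6 h groups (adjusted p = 0.095). Without control replicate 3 the change at 3 h was -0.84 and passed (adjusted p = 0.038).

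Cpt1a had 2 further probe sets, 1434866_x_at and 1438156_x_at, of a type whose oligonucleotides may also match other transcripts. Their mean signals were 281 ± 105 and 196 ± 80.3 (SD, n = 3) in the control group and 184 ± 64.4 and 122 ± 42.4 at 6 h. Both had the sign of the leading probe set at 6 h, with log2 changes of -0.59 (SE 0.37, adjusted p = 0.34) and -0.67 (SE 0.38, adjusted p = 0.29), and neither passed the test. Their control arrays overlapped the 6 h arrays. Their log2 changes were 0.34 and 0.19 at 1 h and -0.65 and -0.70 at 3 h, with none past the test. From 3 h to 6 h they changed by 0.05 and 0.03, beside -0.34 on the leading probe set.

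Cpt2 had a similar but smaller course on its leading probe set (1416772_at). Its signal was 852, 914 and 782 in the control group, 1101, 953 and 783 at 1 h, 805, 650 and 681 at 3 h, with 651, 654 and 561 at 6 h. The 3 arrays at 6 h lay below the 3 controls, and those at 1 h and 3 h overlapped them. The log2 change was 0.14 (SE 0.14) at 1 h, -0.26 (SE 0.14) at 3 h and -0.45 (95% interval -0.77 to -0.13, adjusted p = 0.053) at 6 h. The 6 h value was just outside the threshold as fitted and inside it after quantile normalization (log2 change -0.53, adjusted p = 0.0025) and after the arrays were scaled to one median (-0.58, adjusted p = 0.013). It was also inside it without ConA 1 h replicate 1 (adjusted p = 0.035) or ConA 1 h replicate 3 (0.029), which change the shared estimate of the spread but not the fold. The second Cpt2 probe set, 1447820_x_at, was dim, with signals from 5.60 to 25.9 on the control arrays and from 24.2 to 53.9 at 6 h. It ran the other way, with a log2 change of 1.36 (SE 0.53, adjusted p = 0.11) at 6 h, so that the 2 probe sets of Cpt2 disagreed in sign. Without control replicate 2 it passed the test as higher (adjusted p = 0.042).

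**Figure D1:**
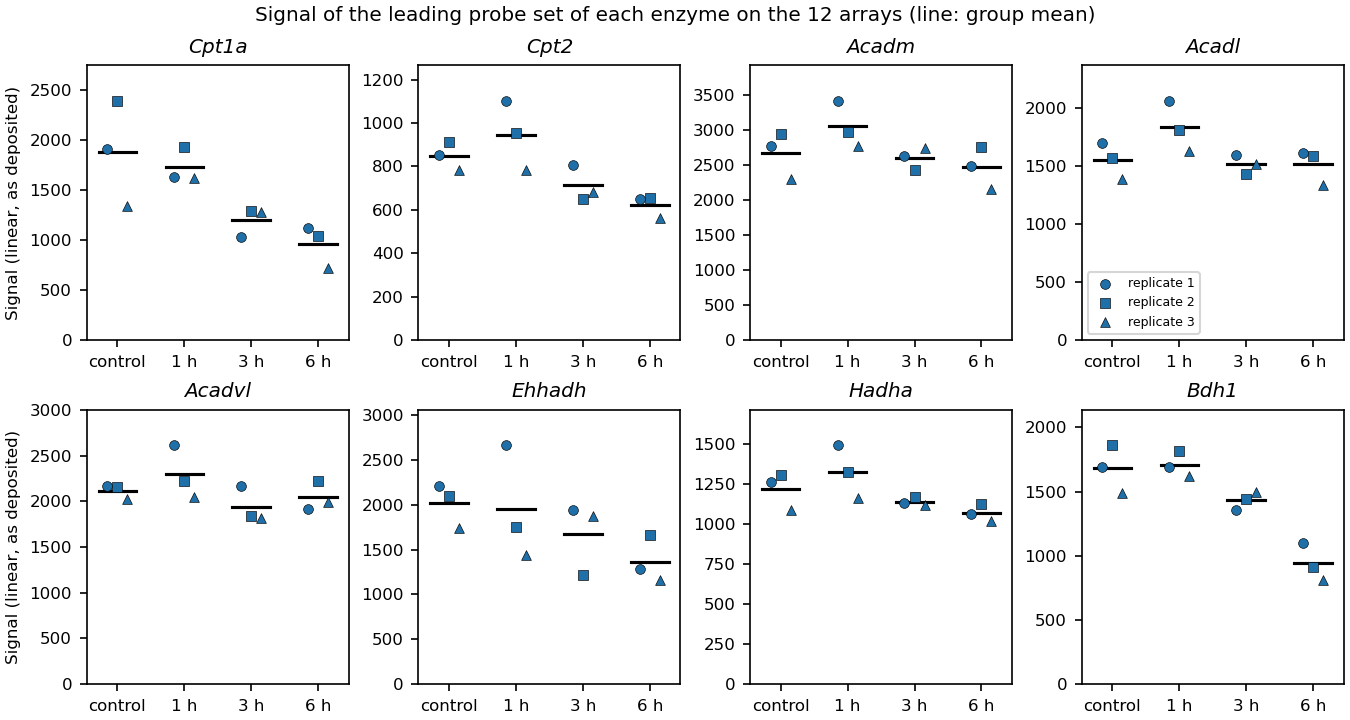
Signal of the leading probe set of each of the 8 enzymes (vertical axes, linear from 0, as deposited) on the 12 arrays by group (horizontal axes), with a marker for each replicate number and a line at the group mean. Bdh1 at 6 h (808 to 1097) and Cpt1a at 6 h (723 to 1121) lie below all controls, while Acadm, Acadl, Acadvl and Hadha overlap the controls at every time point.

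The 3 acyl-CoA dehydrogenases did not pass the test in any comparison. Acadvl (1424184_at), for very long chains, had signals of 2168, 2162 and 2022 in the control group, 2614, 2228 and 2047 at 1 h, 2169, 1838 and 1820 at 3 h, with 1921, 2219 and 1995 at 6 h. Acadl (1448987_at), for long chains, had signals of 1697, 1569 and 1391 in the control group, 2061, 1812 and 1626 at 1 h, 1598, 1434 and 1522 at 3 h, with 1616, 1586 and 1340 at 6 h. Acadm (1415984_at), for medium chains, had signals of 2773, 2938 and 2292 in the control group, 3409, 2970 and 2772 at 1 h, 2626, 2425 and 2733 at 3 h, with 2485, 2750 and 2156 at 6 h. In all 3 the highest of the 12 arrays was ConA 1 h replicate 1, and the groups overlapped the controls throughout. The log2 changes at 6 h had 95% intervals of -0.31 to 0.20 for Acadvl (change -0.05), -0.31 to 0.24 for Acadl (change -0.04) and -0.41 to 0.18 for Acadm (change -0.11). In the same order the changes were -0.13, -0.03 and -0.03 at 3 h. Those at 1 h were 0.11, 0.24 and 0.20. The second Acadl probe set, 1448988_at, was near the floor, with signals of 1.25 to 18.2 over the 12 arrays and 1 array under the floor of 3.04. Its 6 h change of -0.24 had an interval from -1.55 to 1.07 and says little on the gene.

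Hadha, the mitochondrial trifunctional subunit, and Ehhadh, the peroxisomal enzyme, differed in spread. Hadha (1452173_at) had signals of 1262, 1308 and 1088 in the control group, 1493, 1328 and 1164 at 1 h, 1132, 1171 and 1122 at 3 h, with 1061, 1129 and 1020 at 6 h. The groups overlapped, and the 3 h arrays lay close together (mean 1142 ± 26.1, SD, n = 3). Its log2 change was 0.12 (SE 0.11) at 1 h, -0.09 (SE 0.11) at 3 h and -0.19 (95% interval -0.43 to 0.06, adjusted p = 0.30) at 6 h. After quantile normalization the 6 h change was -0.25 and passed (adjusted p = 0.016). Ehhadh (1448382_at) had signals of 2208, 2098 and 1743 in the control group, 2662, 1753 and 1441 at 1 h, 1938, 1216 and 1874 at 3 h, with 1279, 1661 and 1159 at 6 h. All 3 arrays at 6 h were below the lowest control, while the 1 h arrays spanned both sides of the control range. Its log2 change was -0.09 (SE 0.26) at 1 h, -0.29 (SE 0.26) at 3 h and -0.57 (95% interval -1.16 to 0.02, adjusted p = 0.18) at 6 h. The SE of Ehhadh, 0.26, was the largest among the 8 leading probe sets.

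Bdh1, the enzyme that makes beta-hydroxybutyrate, was the member with the smallest adjusted p, on both of its probe sets. On the leading one (1452257_at) the signal was 1689, 1860 and 1490 in the control group, 1693, 1818 and 1618 at 1 h, 1357, 1444 and 1494 at 3 h, with 1097, 915 and 808 at 6 h. The 1 h arrays lay within the control range, the highest 3 h array was level with its lower end, and the 6 h arrays were below every array of the other groups. The log2 change was 0.03 (SE 0.13) at 1 h, -0.23 (SE 0.13, adjusted p = 0.30) at 3 h and -0.84 (SE 0.13, adjusted p = 0.0014) at 6 h, a fall of 1.79-fold. The other probe set (1426959_at) had signals of 600, 675 and 544 in the control group, 675, 701 and 567 at 1 h, 420, 493 and 455 at 3 h, with 316, 284 and 272 at 6 h. Here the 3 h arrays were already below the 3 controls, and the 6 h arrays lay below those of 3 h. Its log2 change was 0.09 (SE 0.12) at 1 h, -0.41 (SE 0.12, adjusted p = 0.054) at 3 h and -1.06 (SE 0.12, adjusted p = 0.00032) at 6 h, a fall of 2.08-fold.

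Most of the fall of Bdh1 came between 3 h and 6 h. The log2 change of 6 h against 3 h was -0.62 (SE 0.13, adjusted p = 0.011) and -0.65 (SE 0.12, adjusted p = 0.0073) on the 2 probe sets, and the 3 arrays at 6 h lay below the 3 at 3 h in both. From 1 h to 3 h the change was -0.26 (SE 0.13, adjusted p = 0.21) on the leading probe set and -0.50 (SE 0.12, adjusted p = 0.024) on the other. That last call rested on the scaling: it was -0.23 (adjusted p = 0.28) after quantile normalization and -0.16 (adjusted p = 0.54) with the arrays scaled to one median. It was also lost with a pseudocount of 1 (adjusted p = 0.074), in a fit of only the 2 groups (0.067), and without ConA 1 h replicate 1 (0.077), ConA 1 h replicate 2 (0.073), ConA 3 h replicate 1 (0.070) or ConA 3 h replicate 3 (0.067). The 6 h calls of both probe sets against control held under every alternative run, with adjusted p up to 0.0068 and 0.0020 when any 1 array was left out. The 3 h value of 1426959_at passed without control replicate 3 (adjusted p = 0.045) or ConA 1 h replicate 3 (0.041).

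**Figure D2:**
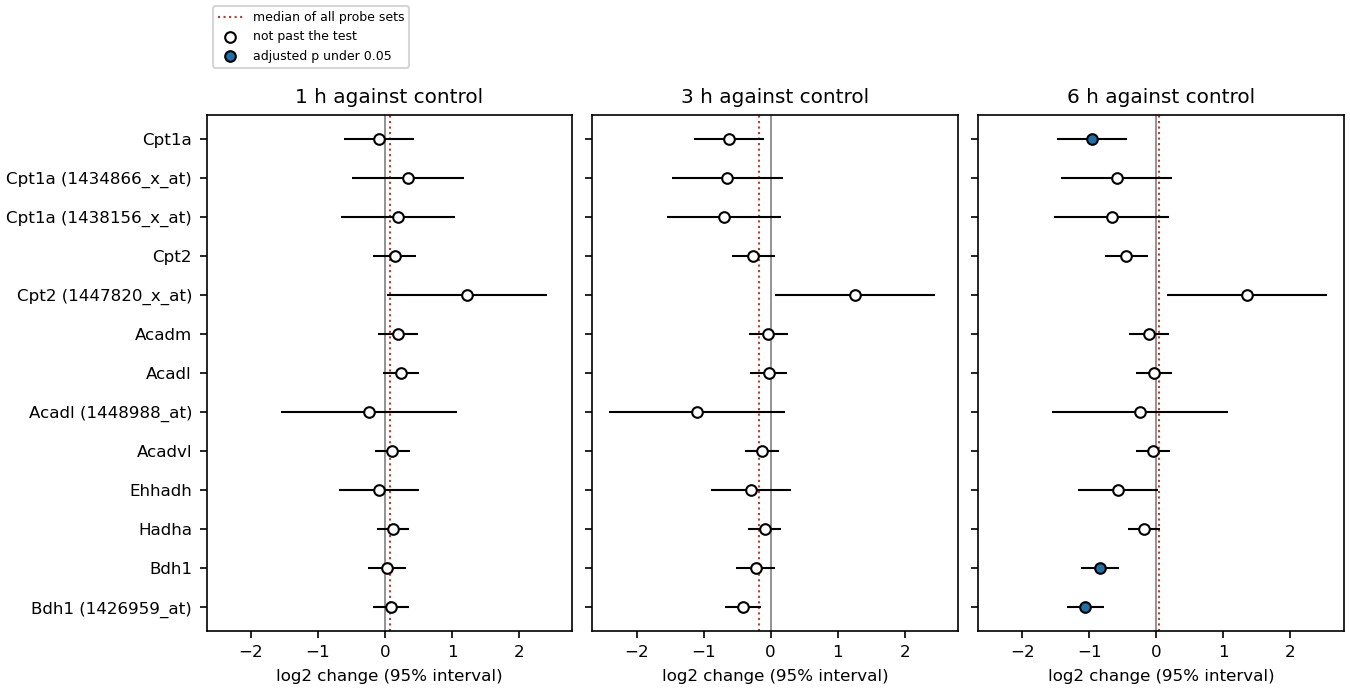
Log2 change against control with its 95% interval (horizontal axes) for the 13 probe sets (rows, the leading one of a gene under the gene's name alone) in 1 panel for each time after ConA. Filled points passed the test, and the dotted line is the median of all probe sets (0.07, -0.18 and 0.04). At 6 h the leading probe set of Cpt1a and both of Bdh1 are filled.

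Over all 13 probe sets, 0 passed the test at 1 h in limma, and 1 had an unadjusted p under 0.05, as did 11.6% of all probe sets. Of all probe sets, 1.29% were higher and 0.255% lower at 1 h. At 3 h again 0 of 13 passed, with 3 at an unadjusted p under 0.05 (27% of all probe sets), while 9.83% of all probe sets were lower and 3.77% higher. At 6 h 3 of 13 were lower and 0 higher, with 5 at an unadjusted p under 0.05 (30.8% of all), against 8.37% of all probe sets lower and 12% higher. By gene, 2 of the 8 leading probe sets were lower at 6 h, against 11.8% of all 18193 genes. Counts this small cannot set the 8 enzymes apart from the other genes. Between 1 h and 3 h, 1 of 13 was lower against 12.8% of all, and between 3 h and 6 h 2 of 13 were lower against 2.42% of all, both of these being Bdh1. The F test over the 4 time points was passed by 4 of 13, the leading probe sets of Cpt1a (adjusted p = 0.032) and Cpt2 (adjusted p = 0.038) and both of Bdh1 (adjusted p = 0.0027 and 0.00055), against 28.1% of all probe sets. It was passed by 2 of 13, the lowest number, without control replicate 1, ConA 1 h replicate 1, ConA 1 h replicate 2, ConA 3 h replicate 2, ConA 3 h replicate 3, ConA 6 h replicate 2 or ConA 6 h replicate 3.

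The median log2 change of the 8 leading probe sets was 0.12 at 1 h, -0.18 at 3 h and -0.32 at 6 h, beside medians over all genes of 0.08, -0.21 and 0.02. All 8 had a negative change at 6 h, from -0.04 to -0.95, although 6 did not pass the test and the change of Acadl turned positive without control replicate 1 (0.030) or ConA 6 h replicate 3 (0.049), and all 8 a negative change at 3 h, where the median of the table was as low. After quantile normalization the table's median at 3 h was -0.01 in place of -0.18, and the 3 h changes of Acadm, Acadl and Hadha turned positive. They also turned positive with the arrays scaled to one median, as did those of Acadvl and Bdh1. At 6 h the 3 arrays of 4 of the 8 lay below the 3 controls (Cpt1a, Cpt2, Ehhadh and Bdh1), which held for 18.5% of all genes. Of all 13 probe sets this was so for 5, against 13.9%.

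Most pairs of the members moved together from array to array. Pearson's r of log2 signals over the 12 arrays ranged from 0.26 to 0.91 for the 28 pairs of leading probe sets, with a median of 0.76, and from -0.09 to 0.91 (median 0.68) after the group means were removed. The values of a pair share each array's RNA and its overall brightness. Cpt1a and Bdh1, the genes that fell, had an r of 0.90 before and 0.91 after the group means were removed, whereas Acadvl and Bdh1 had the lowest, 0.26 and -0.09. After that removal r was also low for Cpt1a with Acadvl (-0.02) and for Ehhadh with Cpt1a (0.17) and with Bdh1 (0.17). No pairs of other genes were taken for comparison. Within groups, control replicate 3 was the lowest of its group for 8 of the 8 enzymes, ConA 1 h replicate 3 for 8 of 8 and ConA 6 h replicate 3 for 7 of 8. After quantile normalization these counts were 8, 6 and 6. ConA 1 h replicate 1 had the highest mean signal of all arrays (205, against 153 to 191 on the others) and was the highest of the 12 arrays for 6 of the 8 enzymes, and for 0 of 8 after quantile normalization. The part of overall brightness in the other ranks was not tested.

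Among 11052 genes with a mean above the median, the 2 with the course most like each enzyme over the 12 arrays were taken by Pearson's r. Bdh1 was most like Pbld1 (r = 0.98) and Aqp9 (r = 0.98), the glycerol channel of hepatocytes, which fell by 2.58 and 2.18 on the log2 scale at 6 h (adjusted p = 2.2e-05 and 7.9e-05). Cpt1a was most like Lgals4 (r = 0.95), a galectin, and Gabarapl1 (r = 0.95), an autophagy protein, with log2 changes of -1.48 and -1.13 (adjusted p = 0.0011 for both) at 6 h. Cpt2 was most like Mrpl42 (r = 0.98), a mitochondrial ribosomal protein, and Aup1 (r = 0.98). Hadha was most like Idh3b (r = 0.96), a subunit of isocitrate dehydrogenase, and Atp5e (r = 0.96), a subunit of ATP synthase. Ehhadh was most like Acot7 (r = 0.95), an acyl-CoA thioesterase, and Gbe1 (r = 0.94), the glycogen branching enzyme. Acadm was most like Dpyd (r = 0.95), which degrades pyrimidines, and Ldlrad4 (r = 0.94). Acadl was most like Cyp2c39 (r = 0.95) and Dram2 (r = 0.94), and Acadvl most like Sdc1 (r = 0.95), a heparan sulphate proteoglycan, and Pet100 (r = 0.95). These r describe 12 arrays with shared brightness, and the highest were picked from many genes.

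The other genes of the pathway were measured by 98 of 106 listed genes in 7 lists, each by its leading probe set. At 6 h 34 of the 98 were lower and 5 higher, at 3 h 14 were lower and 1 higher (Med1), and at 1 h 1 was higher (Lpin1). Of all genes, 11.8% were lower and 14.4% higher at 6 h, 12.9% lower and 4.76% higher at 3 h and 0.148% lower and 1.45% higher at 1 h. At 3 h, leaving out control replicate 1 or control replicate 2 gave 7 lower genes, and there were 8 without ConA 3 h replicate 3, 5 with the arrays scaled to one median and 9 with a pseudocount of 1. The number higher at 6 h was 3 with the arrays scaled to one median, and 3 without control replicate 1, ConA 1 h replicate 1 or ConA 6 h replicate 2.

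Of the other mitochondrial genes of beta-oxidation and the carnitine shuttle, 7 of 21 were lower at 6 h, against 11.8% of all genes. Their median log2 change was -0.33. Hadh, the short-chain hydroxyacyl-CoA dehydrogenase, fell from a mean signal of 5108 ± 584 to 2926 ± 358 (SD, n = 3; log2 change -0.80, SE 0.14, adjusted p = 0.0036). Acad11, an acyl-CoA dehydrogenase, fell from 2158 ± 223 to 1247 ± 91.6 (SD, n = 3; log2 change -0.79, adjusted p = 0.0014). Slc25a20, the carnitine-acylcarnitine carrier between Cpt1a and Cpt2, had a log2 fold change of -0.54 at 6 h (SE 0.15, adjusted p = 0.028), a call lost when any of 5 of the arrays was left out (control replicates 1 and 2 and each 6 h array). Acad9, which also serves the assembly of complex I, had log2 changes of -0.47 (adjusted p = 0.047) at 3 h and -0.46 (adjusted p = 0.037) at 6 h. These were lost without 9 and 6 of the 12 arrays in turn. Hadhb, the beta subunit that pairs with Hadha, had a log2 fold change of -0.21 at 6 h (SE 0.11, adjusted p = 0.24), beside -0.19 for Hadha.

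Peroxisomal genes were lower in the largest number of any list at 6 h, 10 of 17, against 11.8% of all genes. Their median log2 change was -0.60. Amacr, which racemizes branched-chain acyl-CoA, fell from 2004 ± 135 to 676 ± 73.5 (SD, n = 3; log2 change -1.57, SE 0.10, adjusted p = 1.8e-05). Abcd3, a peroxisomal membrane transporter, fell from 5358 ± 670 to 2412 ± 225 (SD, n = 3; log2 change -1.15, adjusted p = 0.00041). Acot4, a peroxisomal thioesterase, had a log2 fold change of -2.46 (SE 0.33, adjusted p = 0.00077) and Abcd2, a related transporter, -1.66 (SE 0.50, adjusted p = 0.044). The Abcd2 call was lost without 8 of the 12 arrays in turn, with adjusted p up to 0.13. Amacr and Abcd3 were the 2 peroxisomal genes lower at 3 h, with log2 changes of -0.55 (adjusted p = 0.0078) and -0.59 (adjusted p = 0.021). With the arrays scaled to one median these 3 h changes were -0.31 and -0.34 and did not pass. The Abcd3 call at 3 h was also lost with a pseudocount of 1 (adjusted p = 0.056) and without control replicate 1, control replicate 2 or ConA 3 h replicate 2 (adjusted p up to 0.071). Ehhadh, the member of this route, stood at -0.57 at 6 h.

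**Figure D3:**
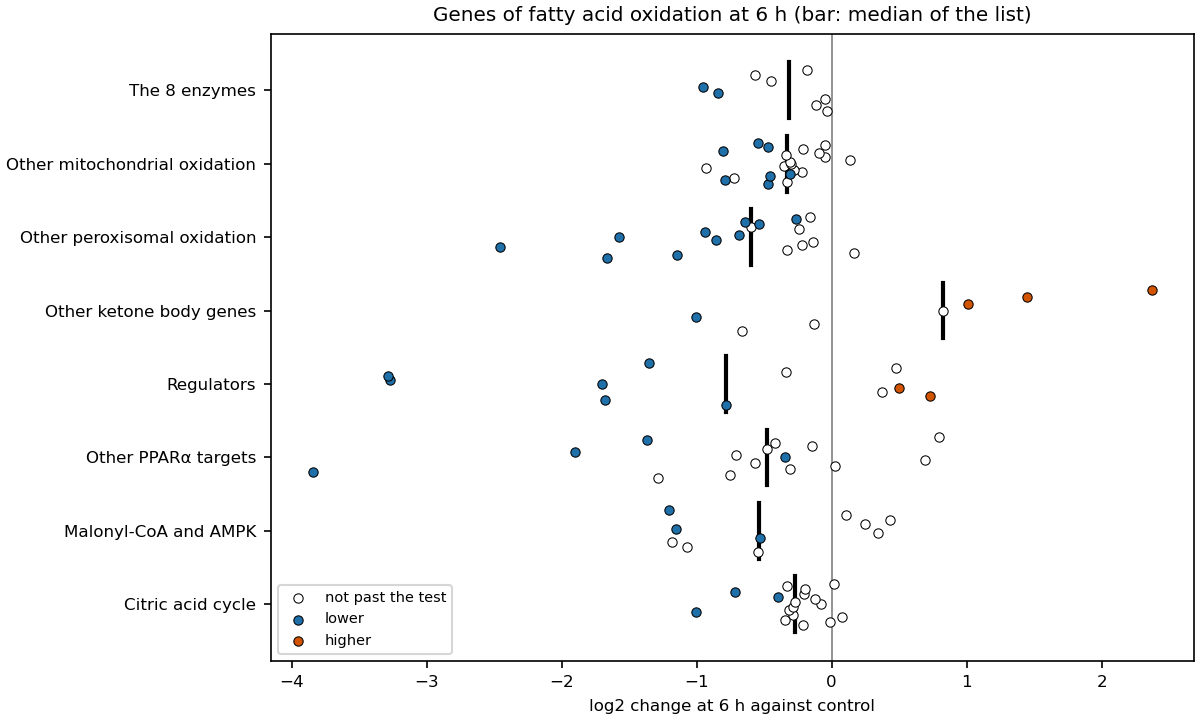
Log2 change at 6 h against control (horizontal axis) of the leading probe set of each gene, in rows by list, with the 8 enzymes on top and a bar at each list's median. Blue points were lower and orange points higher past the test, and open points did not pass. The peroxisomal row has 10 of 17 genes lower, and the ketone body row is the one with 3 genes higher.

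The ketone body genes other than Bdh1 went both ways at 6 h, with 3 of 7 higher and 1 lower (Bdh2). Of all genes, 14.4% were higher and 11.8% lower. Slc16a1, the monocarboxylate transporter that carries ketone bodies and lactate, rose from 510 ± 15.7 to 1441 ± 465 (SD, n = 3; log2 change 1.45, SE 0.30, adjusted p = 0.0081). Slc16a6, a transporter of the same family, had a log2 fold change of 2.37 (SE 0.69, adjusted p = 0.039) from a mean signal of 21.3. Oxct1, the enzyme by which other tissues use ketone bodies and which hepatocytes lack, had a log2 fold change of 1.01 (SE 0.31, adjusted p = 0.049) from a mean signal of 39.3. The calls of Slc16a6 and Oxct1 were lost without 6 and 9 of the 12 arrays in turn, and that of Oxct1 also after quantile normalization (0.87, adjusted p = 0.064) and with the arrays scaled to one median (0.87, adjusted p = 0.070). Of the 5 neutrophil markers measured, 5 were higher at 6 h. Their summed signal was 1514 to 2344 against 55.9 to 110 in the control group. Of 7 T cell markers 3 were higher (Cd3g, Cd2 and Cd28), with sums of 129 to 165 against 56.1 to 68.1. The control means of these 3, 7.3, 4.0 and 6.0, were near the floor of 3.04, as were those of Cxcr2 (3.9) and Itgam (5.8) among the neutrophil markers. The part of neutrophils and T cells in the higher signals was not tested.

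Several regulators of the pathway had fallen by 3 h. Of 11 measured, 7 were lower and 1 higher at 3 h, against 12.9% and 4.76% of all genes. At 6 h 6 were lower and 2 higher (Hnf4a and Med1), against 11.8% and 14.4%. At 1 h 1 was higher, Lpin1 (log2 change 1.46, adjusted p = 0.018), and 0 lower. With the arrays scaled to one median fewer of all the pathway genes were lower at 3 h, as given above. How many of the 7 regulators stayed lower was not counted. Ppara, the nuclear receptor itself, had a mean signal of 1830 ± 321 in the control group, 1457 ± 18.0 at 1 h, 294 ± 39.9 at 3 h and 568 ± 140 at 6 h (SD, n = 3 each). Its log2 change was -2.63 (SE 0.20, adjusted p = 6e-05) at 3 h and -1.70 (SE 0.20, adjusted p = 0.00035) at 6 h. Ppargc1b, a coactivator of mitochondrial genes, fell from 346 ± 108 to 22.4 ± 5.0 at 3 h (SD, n = 3; log2 change -3.93, adjusted p = 1.7e-05) and stood at -3.29 (adjusted p = 2.9e-05) at 6 h. Ppargc1a, the related coactivator induced by fasting, had log2 changes of -1.81 (adjusted p = 0.0031) at 3 h and -3.27 (adjusted p = 6.9e-05) at 6 h. At 1 h its change was 0.66 (adjusted p = 0.40), with the 3 arrays above the 3 controls. The calls of Ppara, Ppargc1a and Ppargc1b held under every alternative run. At 3 h, when these 3 had fallen by 1.81 to 3.93 on the log2 scale, the leading probe sets of the 8 enzymes had changed by -0.62 to -0.03 and none had passed the test.

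**Figure D4:**
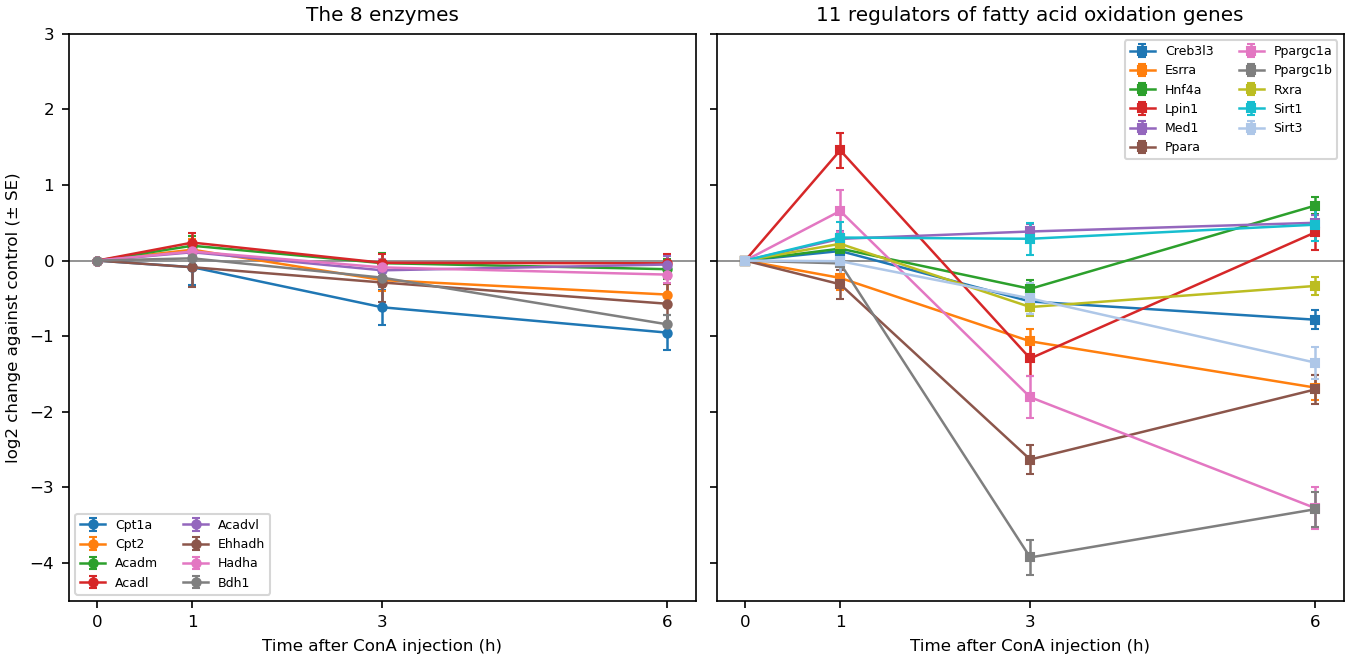
Log2 change against control with its SE (vertical axis, common to both panels) over time after ConA (horizontal axis) for the 8 enzymes (left) and the 11 measured regulators (right). The enzymes stay between -0.95 and 0.24, while Ppara, Ppargc1a and Ppargc1b reach -2.63, -3.27 and -3.93.

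Of 15 measured genes listed as other targets of PPARalpha, 3 were lower at 3 h and 4 at 6 h (Mgll, Acot3, Txnip and Fabp1), and 0 higher. Of all genes, 12.9% and 11.8% were lower. Vnn1 lay above all 3 controls at 3 h (0.97, adjusted p = 0.12) and 6 h (0.79, adjusted p = 0.17) and did not pass. Cyp4a14 (0.69, SE 1.14) and Cd36 (0.02, SE 0.66) also had positive changes at 6 h. Fabp1, Bdh2, Med1, Lpin1, Hnf4a and the cell type markers are named to fill their counts and were chosen after their values were seen. So were Vnn1, Cyp4a14 and Cd36, to show the other direction. Mgll, monoglyceride lipase, had log2 changes of -0.67 (adjusted p = 0.031) at 3 h and -1.90 (adjusted p = 9.5e-05) at 6 h. Acot3, a thioesterase, had a log2 fold change of -3.84 (SE 0.91, adjusted p = 0.016) at 6 h and Txnip, a redox protein, -1.37 (SE 0.36, adjusted p = 0.025). Angptl4, an inhibitor of lipoprotein lipase, had a log2 fold change of -1.24 (SE 0.31, adjusted p = 0.031) at 3 h and -0.31 (adjusted p = 0.58) at 6 h. Fgf21, a fasting hormone of the liver, had a log2 fold change of -1.98 (adjusted p = 0.047) at 3 h from a mean signal of 15.4, with 2 arrays under the floor. Pdk4, which restrains glucose oxidation, had log2 changes of -0.75 (adjusted p = 0.25) at 3 h and -0.48 (adjusted p = 0.46) at 6 h. The 3 h calls were lost without 5 of the 12 arrays in turn for Mgll, 5 for Angptl4 and 10 for Fgf21, and the 6 h calls without 2 for Acot3 and 4 for Txnip. With the arrays scaled to one median the 3 h changes of Mgll (-0.43), Angptl4 (-0.99) and Fgf21 (-1.74) did not pass.

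Of 10 genes that set malonyl-CoA, the inhibitor of Cpt1a, or form the kinase AMPK, 3 were lower at 6 h (11.8% of all genes). Prkag2 and Prkaa2, subunits of AMPK, had log2 changes of -1.20 (SE 0.16, adjusted p = 0.00078) and -1.15 (SE 0.13, adjusted p = 0.00028). The other AMPK subunits did not pass at 6 h, with log2 changes of 0.34 for Prkaa1, 0.43 for Prkab2, 0.25 for Prkab1 and 0.11 for Prkag1. Of the malonyl-CoA genes, Acaca (-0.55, adjusted p = 0.31), Acacb (-1.07, adjusted p = 0.13) and Fasn (-1.18, adjusted p = 0.14) did not pass either. These genes are named to complete the list, after their values were seen. Mlycd, which degrades malonyl-CoA, had log2 changes of -0.56 (adjusted p = 0.015) at 3 h and -0.53 (adjusted p = 0.013) at 6 h. With the arrays scaled to one median the 3 h change was -0.32 (adjusted p = 0.18), and it was also lost without control replicate 1, control replicate 2 or ConA 3 h replicate 3 (adjusted p up to 0.055). Of 17 citric acid cycle enzymes, which use the acetyl-CoA that beta-oxidation yields, 3 were lower at 6 h, against 11.8% of all genes. These were Idh3a, a subunit of isocitrate dehydrogenase (log2 change -1.003, SE 0.12, adjusted p = 0.00048), the succinate dehydrogenase subunits Sdhd (-0.72, SE 0.12, adjusted p = 0.0025) and Sdhb (-0.40, SE 0.11, adjusted p = 0.034). The Sdhb call was lost without control replicate 1, control replicate 2, ConA 6 h replicate 1 or ConA 6 h replicate 3 (adjusted p up to 0.11).

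Markers of the other cell types of the liver gave these values beside the enzymes. Of 8 Kupffer cell markers 3 were lower (Clec4f, Vsig4 and Cd163) and 1 higher (Marco) at 6 h, with summed signals of 773 to 1088 against 1264 to 1686 in the control group. Marco was under the floor on every control array. Of 7 sinusoidal endothelial markers 2 were lower (Clec4g and Kdr) and 2 higher (Lyve1 and Pecam1), with sums of 1510 to 1654 against 1047 to 2206. Of 5 erythroid markers 0 passed limma's test (1 lower at an unadjusted p under 0.05), with sums of 478 to 506 against 726 to 813. Of 3 adipocyte markers 0 passed (0 at an unadjusted p under 0.05), with sums of 6.76 to 29.0 against 12.97 to 15.3. Markers also differed at 3 h, the time of the first falls of the regulators. Of the 5 neutrophil markers 4 were higher then (S100a8, S100a9, Csf3r and Cxcr2), with sums of 1410 to 2003 against 55.9 to 110 in the control group. Of the Kupffer cell markers 3 were lower at 3 h (Clec4f, Vsig4 and Cd163), with sums of 908 to 1037, and of the sinusoidal endothelial markers 1 (Kdr), with sums of 1345 to 1511. The hepatocyte markers summed to 61876 to 64854 at 3 h, and 0 of 9 passed limma's test (1 lower at an unadjusted p under 0.05). The part of these shifts in the falls of Cpt1a, Bdh1 and the regulators was not tested.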

How the data were processed

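RNA from whole mouse liver was measured on 12 Affymetrix arrays, 3 per group. The deposited table held linear intensities. Per the labels the authors made these intensities with MAS5 version 5.0, while the study's methods name RMA. Array distributions differed, and the values were used without new scaling. After 64 control probe sets had been dropped, values were raised to a floor of 3.04, which is the 20th percentile of all values, and put on the log2 scale. A log2 change of a dim probe set is understated by this floor. Depth has no meaning for arrays, and their number limits the precision.

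Of 45037 probe sets, 34945 carried 1 gene symbol, 932 several and 9160 none, and symbols were updated through Entrez IDs to RefSeq. The comparisons used limma 3.58.1 under R 4.3.3, with 1 fit of 4 group means with moderated variances, and p-values were adjusted by Benjamini-Hochberg over all probe sets. All member probe sets were named. Of each pathway list, the 3 largest changes at 6 h and the 2 largest at 3 h among called genes were named, with Ppara, Ppargc1a, Hadhb, Slc25a20, Pdk4 and Fgf21. Members and lists were chosen with earlier results of these data known. Pathway genes without an annotated probe set were not analysed here. Same-numbered arrays of different groups had residual correlations of -0.011 to 0.038 over 18 pairs, so replicate numbers were not taken as pairs. Other pairs had -0.036 to 0.029. These values are over all probe sets and cannot exclude a batch shared by a number. The fit was tested on simulated data with noise independent between arrays and no differences in array brightness. That test does not cover the effect of scaling. Figures were drawn with matplotlib 3.10.9. The alternatives were a replicate block, 1 probe set per gene, fits of only the groups compared, an intensity trend, a bright-probe-set filter at the median, a pseudocount of 1 without a floor, arrays scaled to one median, quantile normalization, and the fit without each array in turn.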

Additional observations from a re-analysis of the deposited data

Results flagged for a closer look

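The results here differed between time points after ConA by a limma test of the difference itself. They were looked for only among the member probe sets and the pathway genes named by the rule above, mostly for large changes against control. Of all 98 pathway genes, 19 were lower and 0 higher at 3 h than at 1 h. At 6 h against 3 h, 14 were lower and 7 higher. Each value is a log2 difference between 2 changes against the same control arrays (3 arrays per group), given with its adjusted p.

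Among the enzymes, Bdh1 changed by -0.62 more at 6 h than at 3 h (adjusted p = 0.011) on its leading probe set. On 1426959_at it changed by -0.50 more at 3 h than at 1 h (adjusted p = 0.024), which was -0.23 after quantile normalization (adjusted p = 0.28) and -0.16 with the arrays scaled to one median (adjusted p = 0.54), and by -0.65 more at 6 h than at 3 h (adjusted p = 0.0073).

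Over all genes the median change was -0.31 from 1 h to 3 h and 0.24 from 3 h to 6 h, so that these differences move with the scaling. Of the 10 differences between 1 h and 3 h, 4 passed the test after quantile normalization and 4 with the arrays scaled to one median, those of Ppara, Ppargc1a, Ppargc1b and Angptl4 in both. Of the 17 between 3 h and 6 h, 16 and 15 passed. That of Oxct1 did not in either (0.91, adjusted p = 0.081, and 0.93, adjusted p = 0.070), and that of Ppara did not with the arrays scaled to one median (0.55, adjusted p = 0.073).

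Between 1 h and 3 h, the differences of named mitochondrial genes were -0.62 for Acad9 (adjusted p = 0.016) and -0.43 for Acad11 (adjusted p = 0.039). That of peroxisomal Amacr was -0.53 (adjusted p = 0.011). The named regulators differed more, by -2.32 for Ppara (adjusted p = 0.00027), -2.46 for Ppargc1a (adjusted p = 0.0010) and -3.89 for Ppargc1b (adjusted p = 5e-05). Of all 11 measured regulators, 8 were lower and 0 higher at 3 h than at 1 h. Lpin1, not named by the rule, differed by -2.75 (adjusted p = 0.00029). Angptl4 differed by -2.09 (adjusted p = 0.0038), Mgll by -0.69 (adjusted p = 0.028) and Mlycd by -0.72 (adjusted p = 0.0059).

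Between 3 h and 6 h, Ppara moved back by 0.93 (adjusted p = 0.013), while Ppargc1a went on by -1.47 (adjusted p = 0.0080). Of the 11 regulators, 3 were lower and 3 higher at 6 h than at 3 h. Those higher included Lpin1 (1.67, adjusted p = 0.0025) and Hnf4a (1.10, adjusted p = 0.00087). Other named genes lower at 6 h than at 3 h were Acad11 by -0.49 (adjusted p = 0.022) and Hadh by -0.54 (adjusted p = 0.031). Lower too were Abcd3 by -0.56 (adjusted p = 0.022), Amacr by -1.02 (adjusted p = 0.00086) and Acot4 by -1.44 (adjusted p = 0.017). So were Mgll by -1.23 (adjusted p = 0.0024), Prkaa2 by -0.87 (adjusted p = 0.0028), Prkag2 by -1.19 (adjusted p = 0.0022), Idh3a by -0.88 (adjusted p = 0.0024) and Sdhd by -0.44 (adjusted p = 0.034). Of 7 ketone body genes other than Bdh1, 3 rose, Oxct1 by 1.31 (adjusted p = 0.020), Slc16a1 by 1.51 (adjusted p = 0.010) and Slc16a6 by 3.22 (adjusted p = 0.014).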

How the results depend on the processing

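Of the log2 changes recomputed, 1298 kept their direction and their side of the threshold, 125 were no longer past the threshold, 18 came past it and 27 changed sign. Counts are not part of these numbers and were judged apart, as the same when within 1.5 times. None of the log2 changes that changed sign was past the threshold under either setting. Scaling moved the calls of every comparison with the 3 h group, and those of 6 h against control. For 3 h against control, 1700 probe sets were higher and 4428 lower as deposited, 2738 higher and 2676 lower after quantile normalization and 2542 higher and 1862 lower with arrays scaled to one median. For 3 h against 1 h these were 942 and 5782, 1779 and 1556, and 1571 and 1202. For 6 h against 3 h they were 6445 and 1092, 2754 and 2830, and 1618 and 2972. For 6 h against control they were 5415 and 3768, 4869 and 5351, and 4224 and 4986, so that the larger side changed there too. For every value, the cause was not tested unless a setting's construction gives it.

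Of the 13 probe sets, the number lower at 3 h was 0 as fitted and 1 with bright probe sets only, an intensity trend or the replicate block, and 0 to 2 when each array was left out. At 6 h the number higher was 0, with 1 among bright probe sets and 0 to 1 when each array was left out, and the number lower was 3, with 5 after quantile normalization and 2 to 4 when each array was left out. From 1 h to 3 h the number lower was 1, with 0 after quantile normalization, scaling to one median, a pseudocount of 1, a fit of only the groups compared or 1 probe set per gene, 2 with bright probe sets and 0 to 2 when each array was left out. From 3 h to 6 h it was 2, with 4 after quantile normalization, 5 with arrays scaled to one median and 1 with 1 probe set per gene. The F test gave 4, and 2 to 4 when each array was left out.

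Of the 98 pathway genes, the number higher at 3 h was 1, with 2 after quantile normalization, among bright probe sets or with the replicate block, 0 with a pseudocount of 1 and 0 to 1 when each array was left out. The number lower at 3 h was 14, with 5 with arrays scaled to one median, 9 with a pseudocount of 1 and 7 to 17 when each array was left out. The number higher at 6 h was 5, with 3 with arrays scaled to one median and 3 to 5 when each array was left out.

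Signs changed for small log2 changes. After quantile normalization they were 0.04 for Acadm, 0.086 for Acadl and 0.029 for Hadha at 3 h, and -0.029 for Acadvl, -0.021 for Hadha, -0.10 for Bdh1 and -0.021 for Bdh1 1426959_at at 1 h, with 0.00050 for Bdh1 from 1 h to 3 h. With arrays scaled to one median they were 0.21 for Acadm, 0.22 for Acadl, 0.12 for Acadvl, 0.16 for Hadha, 0.020 for Bdh1 and 0.065 for Hadhb at 3 h, -0.064 for Bdh1 at 1 h and 0.084 for Bdh1 from 1 h to 3 h. When each array was left out the range was -0.31 to 0.11 for Cpt1a at 1 h, -0.14 to 0.040 for Acadm and -0.11 to 0.038 for Acadl at 3 h, -0.11 to 0.049 for Acadl and -0.78 to 0.23 for Acadl 1448988_at at 6 h, -0.34 to 0.11 for Ehhadh and -0.054 to 0.11 for Bdh1 at 1 h.

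Among named pathway genes, a fit of only the groups compared also ended the calls of Slc25a20, Abcd2, Oxct1, Acot3, Txnip and Sdhb at 6 h and of Acad9, Fgf21, Mgll and Mlycd at 3 h. A pseudocount of 1 ended those of Slc25a20, Acad9, Oxct1 and Sdhb at 6 h and of Acad9, Abcd3, Mgll and Mlycd at 3 h. Quantile normalization ended those of Oxct1 at 6 h and of Acad9, Angptl4 and Mgll at 3 h, and scaling to one median that of Acad9 at 3 h (-0.22, adjusted p = 0.44). The replicate block ended the calls of Slc16a6 (adjusted p = 0.063) and Acad9 (0.052) at 6 h. At 3 h it ended those of Angptl4 (0.062) and Acad9 (0.064). It brought Cpt2 at 6 h (0.026) and Bdh1 1426959_at at 3 h (0.043) past the threshold. With 3 arrays per group and no control after 0 h, falls smaller than the intervals given cannot be told from none.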
